A study of Mus musculus with 5 samples.

Results

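The genes described here are 9 genes of hepatic gluconeogenesis, glucose transport, glycolysis and glycogen turnover, chosen by name: Pck1, G6pc, Fbp1, Pklr, Gys2, Pygl, Slc2a2, Ppp1r3b and Ppp1r3c. All 9 were found by symbol among the 13966 genes of the deposited table, and all 9 were among the 8973 genes whose mean over the libraries reached 5.02 normalised read counts. The series holds 5 RNA-seq libraries. Each comes from hepatocytes of ICR mice, an outbred stock, that had received a fluorescent probe of fatty acid oxidation and whose cells were then sorted by its signal. The study asked how hepatocytes of differing oxidation activity differ in their RNA. From mice given bezafibrate, an agonist of the PPAR nuclear receptors, there were a probe-negative, a probe-positive and a high-positive library, and from control mice a probe-positive and a probe-negative library. With 1 library in each group, nothing below could be checked against replicates, and every value speaks for its own library. The sources used here do not state age, sex, dose, duration or how many mice a library holds, and treatment and mouse cannot be told apart.

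Between meals the liver makes glucose from lactate, amino acids and glycerol. Pck1, the cytosolic phosphoenolpyruvate carboxykinase, commits oxaloacetate to this route, Fbp1 removes a phosphate from fructose bisphosphate, and G6pc, the catalytic subunit of glucose-6-phosphatase, releases free glucose, which leaves or enters the cell through the transporter Slc2a2 (GLUT2). In the fed liver Pklr, the liver and red cell pyruvate kinase, carries carbon the other way at the last step of glycolysis. Gys2 is the liver glycogen synthase and Pygl the liver glycogen phosphorylase. Ppp1r3b and Ppp1r3c are targeting subunits that bring protein phosphatase to glycogen, where it activates the synthase and inactivates the phosphorylase. Glucagon, acting through cAMP, and FOXO factors raise Pck1 and G6pc transcription, insulin lowers it, and glucose raises Pklr through the factor ChREBP (Mlxipl).

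The promoters through which these signals are known to act are shown to set the genes beside their sequence. Promoter sequence was present in the RefSeq table of GRCm38.p6 for 7 of the 9 genes, with 8 start sites because Pklr has a red cell and, downstream of it, a liver start. The 250 bases before a start were searched on both strands. The insulin response sequence TGTTTTG was found once, in G6pc at 174 to 168 bases before its start, and 5.56% of the 32851 promoters of the same length held it. The E-box CACGTG was found once, in Ppp1r3c at 104 to 99 bases before its start, against 6.02% of promoters. The cAMP response element TGACGTCA, the PPAR element (AGGTCA repeated after 1 free base), the FOXO site GTAAACA, the glucocorticoid receptor motif TGTTCT and the HNF1 site (GTTAAT and ATTAAC around 1 free base) were in 0 of the 8 windows, against 1.55%, 0.0335%, 3.17%, 16.1% and 0.00913% of all promoters. Both remaining patterns were chosen after the sequences were seen. TTACGTNA, which takes in the cAMP response element known from the Pck1 promoter, was found in Pck1 at 93 to 86 and in G6pc at 162 to 155 bases before the start, and 0.788% of promoters held it. The paired E-box known as the carbohydrate response element (CACGGG and CCCGTG around 5 free bases) was found in the liver promoter of Pklr at 170 to 154 bases before its start and in 1 of the 32851 promoters. No matches overlapped. A match describes these letters and not a bound site. Pck1, G6pc, Pklr and Ppp1r3c are printed for their matches and Slc2a2 because it had the highest treatment ratio and no match, with the bases of each match in capitals. The windows lie at chr2:173152823-173153072 (+) for Pck1, chr11:101367466-101367715 (+) for G6pc, chr3:89136373-89136622 (+) for the liver start of Pklr, chr19:36736605-36736854 (−) for Ppp1r3c and chr3:28697653-28697902 (+) for Slc2a2.
Pck1: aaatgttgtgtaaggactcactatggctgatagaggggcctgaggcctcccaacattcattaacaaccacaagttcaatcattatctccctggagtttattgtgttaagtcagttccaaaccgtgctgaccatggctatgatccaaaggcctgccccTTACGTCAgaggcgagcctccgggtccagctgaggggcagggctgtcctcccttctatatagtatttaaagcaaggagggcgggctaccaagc
G6pc: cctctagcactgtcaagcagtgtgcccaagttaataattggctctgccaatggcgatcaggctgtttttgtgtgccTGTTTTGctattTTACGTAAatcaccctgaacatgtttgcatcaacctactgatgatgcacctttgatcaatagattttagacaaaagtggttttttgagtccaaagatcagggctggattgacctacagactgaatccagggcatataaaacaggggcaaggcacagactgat
Pklr: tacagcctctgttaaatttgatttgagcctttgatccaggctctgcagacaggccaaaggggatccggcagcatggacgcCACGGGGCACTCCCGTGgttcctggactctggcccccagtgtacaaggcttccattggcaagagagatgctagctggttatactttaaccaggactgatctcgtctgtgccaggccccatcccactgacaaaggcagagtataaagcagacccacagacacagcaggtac
Ppp1r3c: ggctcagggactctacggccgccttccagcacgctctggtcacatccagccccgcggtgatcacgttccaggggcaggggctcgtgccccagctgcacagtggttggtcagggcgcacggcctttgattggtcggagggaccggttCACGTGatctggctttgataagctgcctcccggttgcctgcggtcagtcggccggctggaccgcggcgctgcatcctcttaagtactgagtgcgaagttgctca
Slc2a2: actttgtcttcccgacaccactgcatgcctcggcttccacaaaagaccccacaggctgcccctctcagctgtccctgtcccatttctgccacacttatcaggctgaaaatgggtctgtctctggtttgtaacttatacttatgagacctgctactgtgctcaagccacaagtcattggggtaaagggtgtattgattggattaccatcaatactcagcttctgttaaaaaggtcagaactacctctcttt

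The values are normalised read counts, which the authors deposited and which are whole reads divided by 1 factor per library. Recovered depth was 5056884 to 7146578 reads. The ribosomal RNA precursor Rn45s held 10.5% to 18.5% of reads in the bezafibrate libraries and 34.8% to 36.3% in the control libraries, and albumin 5.10% to 7.58% against 2.12% to 2.17%. This difference in RNA make-up runs with treatment, and its part in the treatment comparisons was not tested. All 8 hepatocyte markers were present in each library. Of markers of other cells, 4 of 7 macrophage genes were in the table with a summed normalised read count of 2.93 to 6.80 in bezafibrate and 3.70 to 7.11 in control libraries. The 6 of 7 endothelial genes, most of it Stab2, summed to 17.6 to 31.6 and 20.05 to 30.4. The 5 of 7 bile duct genes, most of it Pkhd1, summed to 53.7 to 73.1 and 74.4 to 79.5. The 6 of 7 stellate genes, most of it Reln, summed to 30.7 to 38.9 and 100.6 to 110.6. T and NK cell, B cell and neutrophil lists had 1 of 5, 0 of 4 and 1 of 4 genes in the table, none above 1.58. Because Pklr is also a red cell gene, erythroid genes matter here: of 6, 2 were in the table, the globin Hba-a1 at 0.158 to 0.400 in bezafibrate and 0 to 0.411 in control libraries, and Alas2 at 32.9 to 45.1 and 24.1 to 24.8.

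Levels of the 9 genes spanned more than an order of magnitude per length of transcript. Dividing the mean over the 5 libraries by the length of the annotated principal transcript, Pck1 stood at 1347 normalised read counts per kilobase, G6pc at 578, Fbp1 at 203, Pygl at 94.1, Ppp1r3b at 72.6, Pklr at 46.3, Gys2 at 34.4, Ppp1r3c at 33.1 and Slc2a2 at 30.6. By this mean the glucose-making enzymes were the most abundant of the set and the transporter the least. Library by library, the transporter was lowest only in control, at 17.9 per kilobase in control negative and 15.1 in control positive. In bezafibrate negative, positive and high it stood at 47.7, 34.4 and 37.9, above Ppp1r3c at 30.7, 33.0 and 31.8. By normalised read count, without regard to length, Pck1 ranked 27, 22 and 23 among the 8973 genes in bezafibrate negative, positive and high, and 14 in both control libraries. G6pc ranked 107, 87 and 94 in the same bezafibrate libraries, against 34 in control positive and 35 in control negative.

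**Figure D1:**
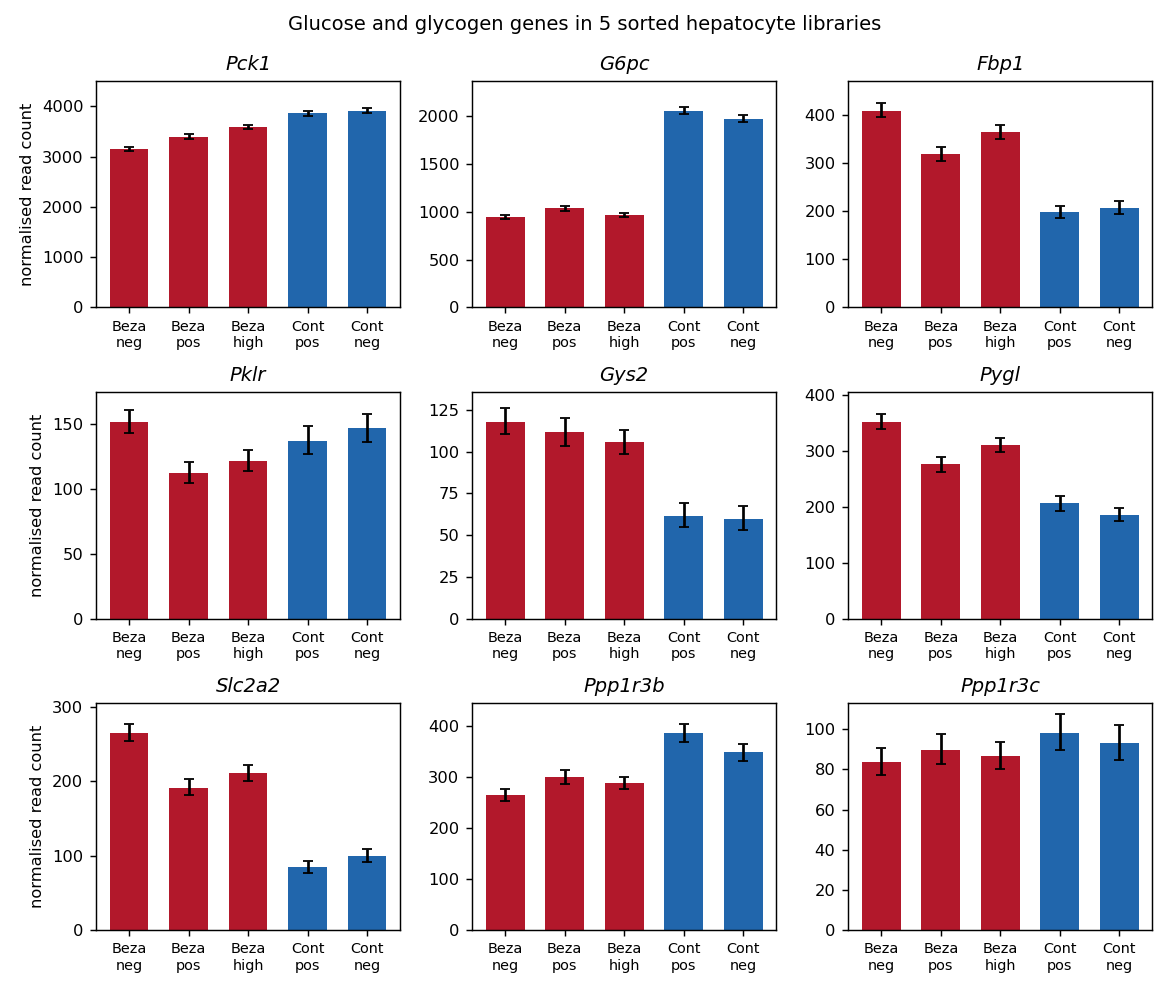
Normalised read count (y axis, linear, from 0) of each of the 9 genes in the 5 libraries (x axis: bezafibrate negative, positive and high in red, control positive and negative in blue). Bars are single libraries and error bars 95% Clopper-Pearson intervals of the reads, which cover counting error only. G6pc stands at 945 to 1034 in bezafibrate and 1973 to 2057 in control libraries, while Slc2a2 stands at 192 to 266 and 84.3 to 99.6.

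Bezafibrate libraries differed from control libraries in opposite directions within this set. G6pc was lower and Slc2a2 higher in both gates, Fbp1, Gys2 and Pygl were higher, and Ppp1r3b and Pck1 were lower by less. Ppp1r3c lay close to control in both gates. Pklr lay close to control in the negative gate, at 1.03-fold, and was 0.819-fold in the positive gate. A gene was counted once it reached 2-fold on the log2 scale after 1.0035, the pseudocount, was added to each normalised read count. In the negative gate 1 of 9, Slc2a2, was counted as higher, against 10.2% of all genes, and 1 of 9, G6pc, as lower, against 5.86%. In the positive gate 1 of 9, again Slc2a2, was higher, against 4.94% of all genes, and 0 of 9 were lower, against 2.91%. The median difference of the 9 was 0.05 in the negative and -0.13 in the positive gate, where all genes had 0.025 and 0.0041. These signs turned with scaling, to -0.21 in the negative gate with totals outside Rn45s and to 0.076 in the positive gate with column totals. In 4 of the 9 the 3 bezafibrate libraries lay above both control libraries, as in 35.7% of all genes, and in 4 they lay below, as in 33.8%. The shares are near the background, and libraries of 1 treatment may share mice. An additive edgeR fit of treatment and gate on the recovered reads, which takes the gate by treatment difference as its error, called Fbp1, Gys2, Pygl and Slc2a2 higher and G6pc and Ppp1r3b lower after Benjamini-Hochberg adjustment, where 24.1% and 21.7% of all genes were called. It is not a test between replicates. Rescaling each library to its column total put the median of all genes at 0.25 and 0.20 in the 2 gates, and leaving Rn45s out of that total at -0.22 and -0.11. With those scalings 1444 genes were higher and 267 lower, and 543 and 1050, in the negative gate, against 919 and 526 as deposited. With column totals G6pc, at -0.83 on the log2 scale, no longer reached 2-fold in the negative gate, while Fbp1, Gys2 and Pygl did. In the positive gate they were 820 and 131, and 332 and 364, against 443 and 261. In bulk RNA, fewer cells of a kind and less RNA per cell cannot be told apart.

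**Figure D2:**
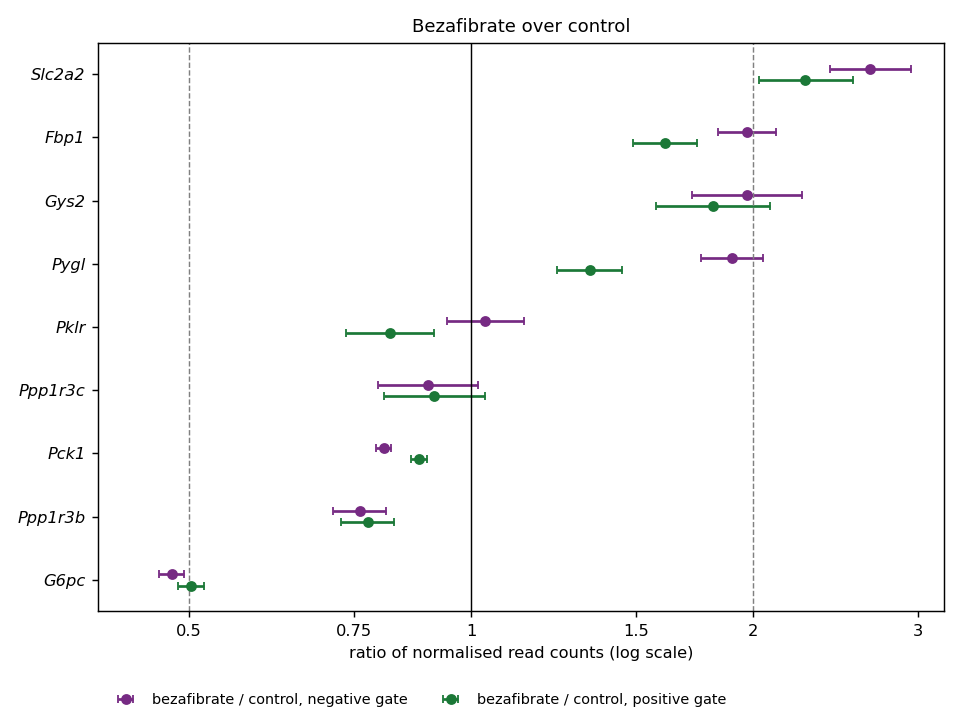
Ratio of normalised read counts, bezafibrate over control (x axis, log scale), for each gene (y axis) in the negative gate (purple) and the positive gate (green). Points are ratios of 2 single libraries, bars 95% counting intervals, and dashed lines 2-fold. Slc2a2 lies furthest right at 2.67 and 2.27, and G6pc furthest left at 0.479 and 0.503.

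Of the gluconeogenic enzymes, G6pc (ENSMUSG00000078650.2, GRCm38 chromosome 11, 101367561 to 101377903) stood at 945 normalised read counts in the bezafibrate negative library, 1034 in positive and 969 in high, against 2057 in control positive and 1973 in control negative. The bezafibrate libraries were all near the same level, well below both controls. The ratio was 0.479 in the negative gate (95% counting interval 0.465 to 0.494) and 0.503 in the positive gate (0.487 to 0.519). Pck1 (ENSMUSG00000027513.11, chromosome 2, 173153048 to 173159273) had 3159, 3396 and 3595 in bezafibrate negative, positive and high, against 3860.3 in control positive and 3917 in control negative. Its ratios were 0.806 (0.791 to 0.822) and 0.880 (0.862 to 0.897), a smaller distance than that of G6pc, and the second had the other sign, at 0.022 on the log2 scale, when libraries were scaled to column totals. Fbp1 (ENSMUSG00000069805.10, chromosome 13, 62864753 to 62888282) went the other way, with 410.2, 319 and 365 in bezafibrate negative, positive and high, against 198 in control positive and 208 in control negative. Its ratios were 1.97 (1.83 to 2.12) and 1.61 (1.49 to 1.74). Fbp1 and G6pc, enzymes of the same pathway, thus lay on opposite sides of control in these libraries, under the deposited and each alternative library scaling. Per albumin RNA, given next, both lay below control.

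The ratios of these genes can be set against albumin, whose own level was higher with bezafibrate. Per albumin RNA, G6pc was 0.161-fold in the negative and 0.241-fold in the positive gate, and Pck1 0.272-fold and 0.421-fold. Fbp1 was 0.663-fold and 0.771-fold on this measure, and Slc2a2 0.898-fold and 1.09-fold. The genes that were higher in normalised read count were therefore at or below the albumin ratio, apart from Slc2a2 in the positive gate.

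Of 27 other listed genes of gluconeogenesis and its carbon supply, 23 were analysed. In each gate 16 lay above and 7 below control, where 51.4% of all genes lay above in the negative and 50.4% in the positive gate. Slc25a12, 1 of the 16, passed the filter at a mean of 5.02 only through the bezafibrate libraries. At 2-fold or more, 6 were above and 1 below control in the negative gate, with a median log2 difference of 0.59, and 2 and 1 in the positive gate, with 0.46. All genes gave 10.2% and 5.86%, and 4.94% and 2.91%, so the positive-gate counts of the list are near that background. Pcx, pyruvate carboxylase at the entry to the pathway, had 612 in bezafibrate negative against 365 in control negative, and 516 in bezafibrate positive against 359 in control positive. The amino acid transaminase Tat was the most abundant, at 1843 against 2178 and 1811 against 2099. Mpc1, a subunit of the mitochondrial pyruvate carrier, was 4.99-fold (3.65 to 6.97) in the negative and 2.37-fold (1.76 to 3.23) in the positive gate, and Mdh1, the cytosolic malate dehydrogenase, 3.21-fold and 2.36-fold. Got1, the cytosolic aspartate transaminase, was 0.402-fold (0.375 to 0.430) and 0.401-fold (0.371 to 0.432), the 1 gene of the list at least 2-fold lower in either gate.

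The transporter Slc2a2 (ENSMUSG00000027690.13, chromosome 3, 28697903 to 28731359) had 266, 192 and 211 in bezafibrate negative, positive and high, against 84.3 in control positive and 99.6 in control negative. Every bezafibrate library was above both controls. The ratio was 2.67 in the negative gate (2.41 to 2.95) and 2.27 in the positive gate (2.03 to 2.55). It stayed at or above 2-fold, at 1.06 to 1.64 on the log2 scale, under each of the 6 alternative settings tried. Those that change only the filter on low genes cannot move it. Pklr (ENSMUSG00000041237.12, chromosome 3, 89136142 to 89146784) had 152, 113 and 122 in bezafibrate negative, positive and high, against 138 in control positive and 147 in control negative. Its libraries overlapped between treatments. The ratio was 1.03 in the negative gate (0.942 to 1.14), with the other sign at -0.21 (log2) when libraries were scaled to totals outside Rn45s, and 0.819 in the positive gate (0.735 to 0.913). Gene-level values do not separate the liver from the red cell transcript.

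Of 29 other glycolysis genes, 21 were analysed, and in each gate 15 lay above and 6 below control, beside the same 51.4% and 50.4% of all genes above. At 2-fold or more, 4 were above and 2 below control in the negative gate, with a median log2 difference of 0.44, and 3 and 0 in the positive gate, with 0.48, beside 10.2% and 5.86%, and 4.94% and 2.91%, of all genes. Gapdh was 2.42-fold (2.29 to 2.56) and 1.75-fold (1.64 to 1.86), and the phosphoglycerate kinase Pgk1 3.16-fold and 2.35-fold. Eno1 was 3.21-fold and 1.12-fold, and Eno1b 1.47-fold and 2.49-fold, and since they are close copies of one enolase gene their separate values are uncertain. Eno3, another enolase, was 0.284-fold (0.162 to 0.484) and 0.577-fold (0.345 to 0.957) at fewer than 10 normalised read counts in each library. It was 1 of the 2 below control in the negative gate, and it passed the filter at a mean of 5.02 only through the control libraries.

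Gckr, a regulatory protein at the entry to glycolysis, had 147 in bezafibrate negative against 389.7 in control negative, and 211 in bezafibrate positive against 357 in control positive. All 3 bezafibrate libraries lay below both control libraries. The ratios were 0.378 (0.351 to 0.407) and 0.590 (0.548 to 0.634), so that it reached 2-fold below control in the negative gate.

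**Figure D3:**
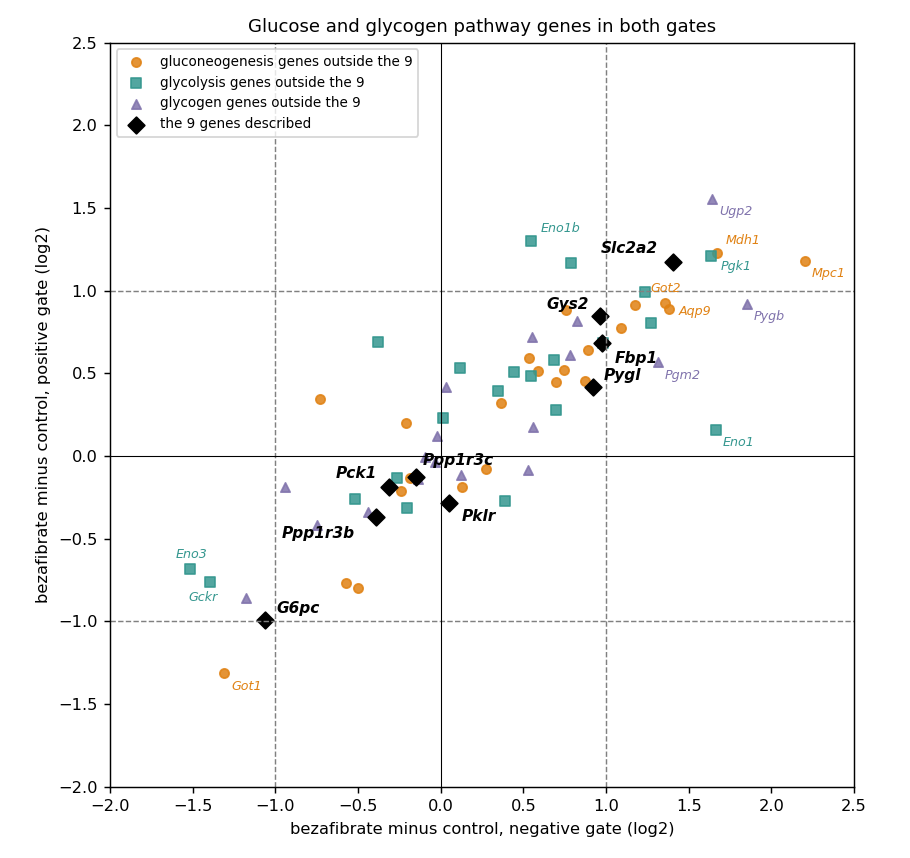
Log2 difference of bezafibrate minus control in the negative gate (x axis) and the positive gate (y axis) for the 9 genes (black diamonds) and for other analysed genes of gluconeogenesis (orange circles), glycolysis (teal squares) and glycogen metabolism (violet triangles). Dashed lines mark 2-fold. G6pc lies low on both axes, at -1.06 and -0.99, near Got1 at -1.31 and -1.31, and Slc2a2 lies high at 1.41 and 1.18.

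Both enzymes of glycogen turnover were higher with bezafibrate. Glycogen synthase Gys2 (ENSMUSG00000030244.7, chromosome 6, 142422613 to 142473109) had 118, 112 and 106 in bezafibrate negative, positive and high, against 61.7 in control positive and 60.0 in control negative. Glycogen phosphorylase Pygl (ENSMUSG00000021069.17, chromosome 12, 70190811 to 70231488) had 352, 276 and 310.4, against 206 in control positive and 185 in control negative. In both genes the treatments did not overlap. The Gys2 ratio was 1.97 (1.72 to 2.25) in the negative and 1.81 (1.58 to 2.08) in the positive gate. The Pygl ratio was 1.90 (1.76 to 2.05) and 1.34 (1.24 to 1.45), and the positive-gate ratio over the negative-gate ratio was 0.705 (0.632 to 0.787, counting error only), against 0.920 (0.760 to 1.11) for Gys2.

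The phosphatase targeting subunits were at or below control. Ppp1r3b (ENSMUSG00000046794.9, chromosome 8, 35375739 to 35388139) had 265, 300.4 and 289 in bezafibrate negative, positive and high, against 387 in control positive and 349 in control negative. Its ratios were 0.760 (0.712 to 0.812) and 0.775 (0.727 to 0.828). Ppp1r3c (ENSMUSG00000067279.3, chromosome 19, 36731731 to 36736653) had 83.7, 89.8 and 86.7, against 98.3 in control positive and 93.0 in control negative. Its ratios, 0.900 (0.796 to 1.02) and 0.914 (0.807 to 1.04), have counting intervals that take in 1, and their sign turned when libraries were scaled to column totals, at 0.081 and 0.076 on the log2 scale. A further subunit of the family, Ppp1r3g, had 50.4 in bezafibrate negative against 115 in control negative, and 63.5 in bezafibrate positive against 116 in control positive, which gives 0.437-fold (0.383 to 0.499) and 0.548-fold (0.480 to 0.624).

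Of 29 other glycogen genes, 18 were analysed, of which 3 were above and 1 below control by 2-fold or more in the negative gate (median 0.077) and 1 and 0 in the positive gate (median 0.058), beside those same shares of all genes. Ppp1r3g was the 1 lower gene. Ugp2, which makes the UDP-glucose that glycogen synthase uses, was 3.19-fold (2.68 to 3.81) and 3.01-fold (2.45 to 3.73). Pgm2, a phosphoglucomutase, was 2.51-fold (2.18 to 2.91) and 1.49-fold (1.29 to 1.72), and the lysosomal glucosidase Gaa had 109 against 73.5 in the negative and 83.2 against 73.5 in the positive gate. Pygb, the brain form of phosphorylase, was low, at 8.53 in bezafibrate negative against 1.64 in control negative, and 6.62 in bezafibrate positive against 3.02 in control positive. It was 1 of the 3 above control, and it passed the filter at a mean of 5.02 only through the bezafibrate libraries.

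All 36 listed regulators of these genes were analysed. In each gate 11 lay above and 25 below control, where 51.4% and 50.4% of all genes lay above. At 2-fold or more, 3 were above and 7 below control in the negative gate, with a median log2 difference of -0.26, and 2 and 8 in the positive gate, with -0.22. Of all genes 10.2% were that far above and 5.86% below in the negative gate, while the positive gate had 4.94% above and 2.91% below. Onecut1, a hepatocyte transcription factor, had 37.3 in bezafibrate negative against 402 in control negative, and 27.7 in bezafibrate positive against 385 in control positive. Nr4a1, an immediate early nuclear receptor induced by cAMP, was 0.171-fold (0.123 to 0.233) and 0.248-fold (0.169 to 0.356). Igfbp1, a secreted protein whose gene is a known FOXO target, had 702 against 1729 and 701 against 1750, ratios of 0.406 and 0.400. On the higher side Trib3 was 2.68-fold and 3.16-fold, the pyruvate dehydrogenase kinase Pdk2 2.62-fold and 1.87-fold, and the receptor Ppara 2.14-fold and 2.27-fold.

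Further regulators were chosen after their values were seen. The glucagon receptor Gcgr had 190.4 in bezafibrate negative against 625 in control negative, and 266 in bezafibrate positive against 591 in control positive, ratios of 0.304 (0.286 to 0.324) and 0.451 (0.424 to 0.479). The insulin receptor substrate Irs2 was 0.282-fold (0.259 to 0.308) and 0.304-fold (0.277 to 0.332), and the cAMP-induced kinase Sik1 0.315-fold and 0.325-fold. The coactivator Ppargc1a was 0.563-fold (0.473 to 0.670) and 0.583-fold (0.485 to 0.701). Foxo1 itself had 132 against 147 and 137 against 171, and Mlxipl, the most abundant of the list, 1334 against 1896 and 1709 against 1976. All of these further regulators lay below control, as did 25 of the 36 in each gate, while 11 lay above. On that higher side the glucocorticoid receptor Nr3c1 had 109 against 61.4 and 86.1 against 64.7. Srebf1 had 667 against 385 and 653 against 404, and Creb1 18.7 against 11.5 and 17.7 against 14.2. The PPARalpha targets Ehhadh and Cyp4a10, for scale, were 24.9-fold and 13.5-fold in the negative gate and 14.5-fold and 7.98-fold in the positive gate. Pdk4 of the regulator list, also known as a PPARalpha target, lay below control, at 3.87 against 8.62 and 4.89 against 11.0. Both of these bezafibrate values lie under the filter mean of 5.02 and rest on few reads.

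**Figure D4:**
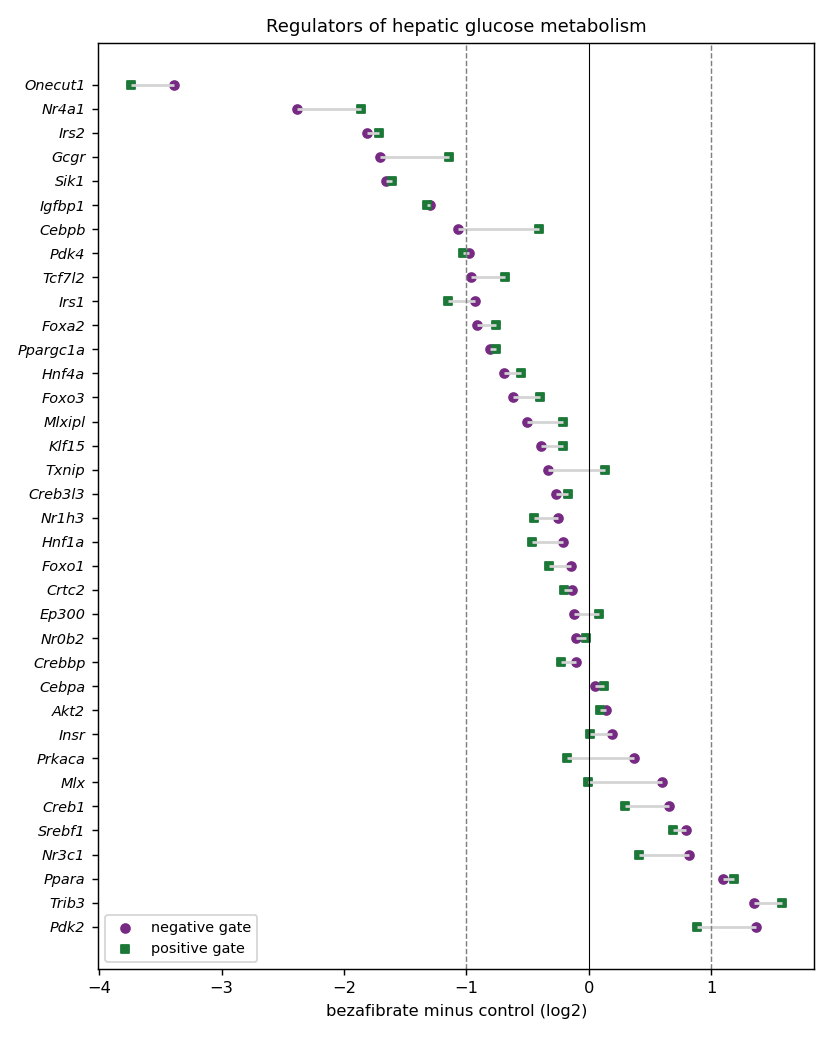
Log2 difference of bezafibrate minus control (x axis) for 36 regulators (y axis), in the negative gate (purple circles) and the positive gate (green squares), joined by a grey line and sorted by the negative gate. Dashed lines mark 2-fold. Onecut1 lies lowest at -3.39 and -3.75, followed by Nr4a1, while Trib3 lies at 1.35 and 1.58.

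Between gates of the same treatment, 0 of the 9 genes differed by 2-fold or more in any of the 4 comparisons, against few of all genes. For control positive against control negative 0.145% of all genes stood higher by that much and 0.189% lower, and in bezafibrate mice 0.134% and 0.123%. From high against negative these shares were 0.111% and 0.156%, and from high against positive 0.0669% and 0.078%. The intervals here hold counting error only, and spread between mice or sorts cannot be read from single libraries. In bezafibrate mice Slc2a2, Pklr, Fbp1 and Pygl were lower in the positive than in the negative gate, by ratios of 0.722 (0.672 to 0.776), 0.741 (0.674 to 0.814), 0.778 (0.735 to 0.823) and 0.783 (0.737 to 0.832). Pck1 at 1.08 (1.06 to 1.10), G6pc at 1.09 (1.06 to 1.13) and Ppp1r3b at 1.13 (1.06 to 1.21) were higher. The Gys2 ratio of 0.946 (0.856 to 1.05) had the other sign, at 0.067 on the log2 scale, when libraries were scaled to totals outside Rn45s. Beside these values, albumin stood at 48208 against 72188, positive against negative, and Rn45s at 174815 against 99961. Their part in the gate differences was not tested.

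Across the 3 bezafibrate gates the order of levels differed by gene. Pck1 was highest in the high gate, with 3595 against 3396 in positive and 3159 in negative, and each step was beyond counting error. Fbp1, Pygl and Slc2a2 were highest in negative, then high, then positive, also with each step beyond counting error. G6pc was 0.937-fold in the high against the positive gate (0.906 to 0.969) and 1.02-fold against the negative gate (0.992 to 1.06). Gys2 was 0.896-fold in the high against the negative gate (0.813 to 0.987), though neither adjacent step in its order was beyond counting error. No pair of these gates differed beyond counting error in Ppp1r3c.

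In control mice the log2 gate differences of the 9 genes ran from -0.24 to 0.15. With bezafibrate they ran from -0.47 to 0.18 for positive against negative and from -0.33 to 0.19 for high against negative. For high against positive they ran from -0.094 to 0.19. Slc2a2 stood at 84.3 in control positive against 99.6 in control negative, a ratio of 0.846 (0.739 to 0.969). Pygl and Ppp1r3b were both 1.11-fold (1.01 to 1.22 and 1.04 to 1.19), and G6pc 1.04-fold (1.01 to 1.07). The intervals of Pck1, Fbp1, Pklr, Gys2 and Ppp1r3c took in 1, and the Pck1 ratio of 0.986 (0.966 to 1.01) turned to 0.018 on the log2 scale when libraries were scaled to column totals. Gluconeogenesis is known as a function of periportal hepatocytes, and in the same comparison 0 of 15 periportal genes lay above 0 (median -0.21) while 13 of 13 pericentral genes did (median 0.25). The median of the 9 genes in control was 0.040, with 5 above and 4 below 0, where 52.1% of all genes lay above. With bezafibrate, positive against negative, this zonal split was not seen. There 2 of 15 periportal genes (median -0.30) and 3 of 13 pericentral genes (median -0.20) lay above 0, beside 48.4% of all genes.

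**Figure D5:**
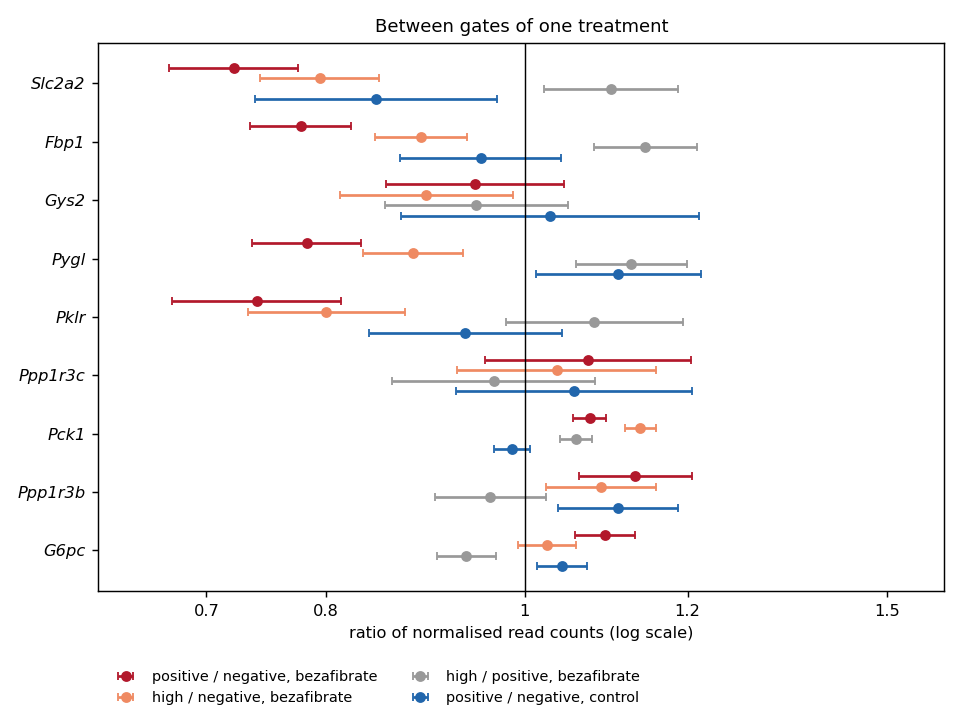
Ratio of normalised read counts between gates of 1 treatment (x axis, log scale) for each gene (y axis): positive over negative (red), high over negative (orange) and high over positive (grey) with bezafibrate, and positive over negative in control (blue). Points are ratios of 2 single libraries and bars 95% counting intervals. Comparisons in bezafibrate share libraries, and the points lie between 0.722 and 1.14.

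Likeness of profiles was measured as the root mean square difference of log2 values over the 5 libraries, each gene centred on its own mean, among 2420 genes with a mean of at least 50. All genes share these 5 libraries and their treatment groups, so the names are a description only. The genes nearest to G6pc were Magi1 at 0.038 and Ccrn4l at 0.047, and those nearest to Fbp1 were the liver-secreted proteins Serpinf2 at 0.018 and Plg at 0.019. Ppp1r3b was nearest to Phka2, a regulatory subunit of the kinase that activates liver phosphorylase, at 0.025. Phka2 had 57.1, 66.0 and 65.02 in bezafibrate negative, positive and high, against 83.6 in control positive and 77.6 in control negative. Pck1 was nearest to Map2k2 (0.019), Pygl to Ndst1 (0.023), Slc2a2 to the copper transporter Slc31a1 (0.037), Gys2 to Narf (0.015), Ppp1r3c to Uhrf1bp1l (0.012) and Pklr to the cholesterol synthesis gene Hmgcs1 (0.065). Within the set the closest pair was Pck1 and Ppp1r3c, at 0.066.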

How the data were processed

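RNA was measured in 5 sorted hepatocyte libraries, 1 per group. Per the labels' protocols, rRNA-depleted, directional libraries were made from total RNA extracted with an FFPE kit and sequenced paired-end. The submitters' processing notes name mm10, edgeR, RSEM, Bowtie2 and Trimmomatic 0.36, without their roles. The deposited signal behaves as whole reads over a library-wide factor: with the lowest nonzero value of a library taken as 1 read, 100% of values came out whole (tolerance 0.001 reads), and how the authors set the factor is not stated in these sources. How reads were shared among near-identical genes is not stated, so values of close copies are uncertain.

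Each ratio divides deposited values, and its 95% interval is exact (Clopper-Pearson) on the recovered reads. It holds counting error alone. No molecular identifiers are named, so reads cannot be taken as independent molecules. Differences use log2(value + 1.0035), which understates those of low genes. Genes with a mean of at least 5 pseudocounts were analysed. No test between replicates was possible with 1 library per group. edgeR 4.0.16 in R 4.3.3 fitted treatment and gate on 4 libraries, added once the data had been seen. The rest used scipy 1.17.1 in Python 3.11.15, and counting and fits were tested on simulated data. Coordinates and lengths follow the GENCODE annotation of GRCm38 (mm10). Named were the 9 genes, and in each list the 2 most abundant and the 2 most different in each direction past 2-fold in a treatment comparison; some genes that this rule names are not reported here. The genes and lists were chosen with earlier results of these data known.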

Additional observations from a re-analysis of the deposited data

Results flagged for a closer look

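The results below were picked out because, for single genes, the same contrast had opposite directions in 2 settings, with both counting intervals clear of 1. Searched were the 9 genes and the analysed genes of the gluconeogenesis (23), glycolysis (21), glycogen (18) and regulator (36) lists. The share of all genes with such opposite directions was not computed, so how common they are is not known here. With 1 library per group the difference between the 2 effects was not tested. Values are log2 differences of differences. For the gate, they are the positive minus negative difference in bezafibrate minus that in control mice. Among the 9 genes this was Pygl, at -0.50, which was 0.783-fold in the positive gate with bezafibrate and 1.11-fold in control. Among the other genes the gate value was 1.07 for the serine dehydratase Sds, 1.07 for the phosphofructokinase Pfkl, 0.75 for Eno1b, 0.66 for Cebpb, 0.64 for Gckr and 0.56 for Gcgr. It was -1.50 for Eno1, -0.74 for Pgm2, -0.66 for the monocarboxylate carrier Slc16a1, -0.61 for the glycogen branching enzyme Gbe1 and -0.35 for Gpd1. Eno1 and Eno1b are close copies. The bezafibrate minus control difference also had opposite signs in the positive and negative gates for Sds (1.07), Pfkl (1.07), Txnip (0.47) and Slc16a1 (-0.66). Sds had 436 in bezafibrate positive and 300.5 in bezafibrate negative, against 343 in control positive and 499 in control negative.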

How the results depend on the processing

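No paired analysis was possible because each group has 1 library and no replicate number, apart from the edgeR fit, which took gate as a block over 4 libraries with 1 residual degree of freedom. Of the 54 differences of the 9 genes, 47 kept 1 sign under the deposited scaling and all 6 alternatives. Among the alternatives, only the changes of scaling can turn a sign. As deposited, only Slc2a2 in both gates and G6pc in the negative gate of the treatment comparison reached 2-fold, and 0 of these reversed. Of 324 recomputed values, 273 moved by less than their counting interval and 51 by more. The 273 include every value under the settings with no filter and with a filter at 20 pseudocounts. By construction these settings cannot move a gene's own value. In the negative gate of the treatment comparison, scaling to column totals made 4 of the 9 genes at least 2-fold different, against 2 as deposited. In the positive gate scaling to column totals, to totals outside Rn45s and by the median gene ratio each gave 2, against 1. With the last of these and with totals outside Rn45s, G6pc was the added gene. Counts over all genes moved with the pseudocount and the filter, which by construction let in fewer or more low genes. In the negative gate they were 943 with a pseudocount 5 times as large and 874 with a filter at 20 pseudocounts, against 1445. In the positive gate they were 411 and 405, and 1086 with no filter, against 704. For control positive minus negative they were 3, 3 and 232, against 30. Between bezafibrate gates they were 14, 8 and 92 against 23 (positive minus negative), 9, 7 and 133 against 24 (high minus negative), and 8, 4 and 133 against 13 (high minus positive). The edgeR fit called 2162 genes higher and 1944 lower of 8973, with 4673 at an unadjusted p under 0.05. The fewest reads behind a value of the 9 genes were 286, for Gys2 in control positive.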

Other observations

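Markers of the periportal zone, whose hepatocytes are known for gluconeogenesis, lay above control with bezafibrate in 13 of 15 genes in the negative and 14 of 15 in the positive gate, beside 51.4% and 50.4% of all genes. Of the 15, 7 reached 2-fold above control and 0 below in the negative gate, with a median log2 difference of 0.59, and 8 and 0 in the positive gate, with 1.09. Sox9, counted among the 8, had 5.04 in bezafibrate positive against 1.29 in control positive, near the filter at a mean of 5.02. Of all genes 10.2% were that far above and 5.86% below in the negative gate, while the positive gate had 4.94% above and 2.91% below. Cyp2f2 had 2544 in bezafibrate negative against 903 in control negative, and 1880.3 in bezafibrate positive against 762.1 in control positive. Of 13 pericentral genes, 9 in the negative and 5 in the positive gate lay above control. At 2-fold or more, 2 in the negative and 1 in the positive gate were above control and 0 below, with medians of 0.26 and -0.18.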
